A study of Mus musculus with 64 samples.

Results

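The genes described here encode subunits of respiratory complex I, the NADH:ubiquinone oxidoreductase of the inner mitochondrial membrane. They were chosen by symbol from a fixed list of 34 nuclear genes of the Nduf families. All 34 were found among the 55487 genes of the count table, and all 34 passed the filter on low counts, which left 10097 genes. Each had at least 10 UMIs (unique molecular identifiers, one per captured transcript) in every library, and their totals over all libraries ran from 3134 UMIs for Ndufs5 to 75666 for Ndufa6.

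Complex I takes electrons from NADH at the tip of a peripheral arm that stands in the mitochondrial matrix, passes them along iron-sulfur clusters to ubiquinone, and pumps protons through a membrane arm. Its core is joined by a shell of accessory subunits that hold it together, and one group of core subunits is encoded by the mitochondrial genome. The assembled complex carries the mitochondrial acyl carrier protein, Ndufab1, bound to the accessory subunits Ndufa6 and Ndufb9, and that protein is also the carrier of mitochondrial fatty acid synthesis, a pathway that uses malonyl-CoA. Within mitochondria, malonyl-CoA can be formed from malonate by the enzyme that Acsf3 encodes.

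Livers came from male C57BL/6J mice fed ad libitum and taken 4 weeks after injection of an AAV8 vector. In the sh-Acsf3 group the vector's short hairpin RNA targeted Acsf3, and in the sh-Ctl group it was a control, so every animal of both groups had received virus and hairpin, and none was untreated. Collection was at zeitgeber time (ZT, by convention counted in h from lights on) 0, 3, 6, 9, 12, 15, 18 and 21, with 4 replicates for each treatment and time, which gives 64 libraries. The labels do not say that each replicate was a separate animal, so the p-values measure the spread between these samples.

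The libraries held 0.839 to 9.35 M UMIs (median 2.79), with a median of 3.13 in sh-Ctl and 2.03 in sh-Acsf3. Acsf3 itself lay at 6.32, 11.1 and 18.0 CPM (UMI counts scaled to a library of 1 M; lowest, median and highest of 32) in sh-Ctl and at 0, 2.49 and 7.31 CPM in sh-Acsf3, with an averaged log2 difference of -2.23 ± 0.13 (SE) and an edgeR adjusted p of 1.82e-21. Hepatocyte markers were abundant in every library, with a summed median of 131339 CPM in sh-Ctl and 134226 CPM in sh-Acsf3, and skeletal muscle markers were at or near 0. In 4 sh-Ctl libraries the acute-phase gene Saa1 was above 1000 CPM, and in 8 libraries (2 sh-Ctl, 6 sh-Acsf3) genes of the exocrine pancreas summed to over 100 CPM. The counts of called subunits are also given without these libraries.

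Promoter sequences from RefSeq (GRCm38.p6) covered 31 of the 34 genes, in windows from 250 bases before to 50 bases after a transcription start. The ones shown are matches to motifs of 2 factors known for binding promoters of respiratory genes, because these matches were the most frequent among the subunits. The NRF1 core (GCGC, any base, TGCGC), searched on both strands, was present for 7 of 31 subunits (22.6%), against 4.6% of all 32851 promoter windows. Here and for the motifs below, subunits were counted by gene (33 windows for 31 genes). The share of all promoters was counted by window, for 27025 genes, whether tested here or not. The first group below holds the 7 subunits with an NRF1 match, each as 30 bases on the gene's own strand, 5′ to 3′, with the match in capitals.
Ndufa11, chr17:56717692-56717721, plus strand: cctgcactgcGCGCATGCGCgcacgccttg
Ndufa5, chr6:24527697-24527726, minus strand: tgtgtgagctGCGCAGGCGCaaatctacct
Ndufa6, chr15:82354249-82354278, minus strand: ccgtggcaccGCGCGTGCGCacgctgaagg
Ndufa8, chr2:36049349-36049378, minus strand: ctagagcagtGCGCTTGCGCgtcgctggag
Ndufb4, chr16:37654371-37654400, minus strand: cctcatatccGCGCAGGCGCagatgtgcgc
Ndufs5, chr4:123718265-123718294, minus strand: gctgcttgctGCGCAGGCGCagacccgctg
Ndufs6, chr13:73328479-73328508, minus strand: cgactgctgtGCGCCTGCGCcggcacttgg

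In the GENCODE M21 annotation, 5 of these 7 matches lay in an annotated untranslated exon, and those of Ndufa11 and Ndufs5 lay outside the gene. The YY1 core AAGATGGC, also searched on both strands, was also present for 7 of 31 subunits (22.6%, with Ndufs6 in both groups), against 2.75% of all windows. Every one of the 7 stood on the gene's own strand between 23 and 39 bases after the RefSeq start, and in every one the letters ATG were the annotated start codon, so the match spans the last bases of the untranslated region and the first of the coding region. These are the windows, with the match in capitals.
Ndufa3, chr7:3617384-3617413, plus strand: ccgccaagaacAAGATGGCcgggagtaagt
Ndufa9, chr6:126849097-126849126, minus strand: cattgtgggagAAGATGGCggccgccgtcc
Ndufb8, chr19:44555393-44555422, minus strand: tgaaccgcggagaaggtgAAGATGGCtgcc
Ndufc1, chr3:51408915-51408944, minus strand: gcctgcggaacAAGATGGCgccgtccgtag
Ndufs4, chr13:114388045-114388074, minus strand: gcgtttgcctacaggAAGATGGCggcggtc
Ndufs6, chr13:73328433-73328462, minus strand: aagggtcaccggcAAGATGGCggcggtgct
Ndufs7, chr10:80249462-80249491, plus strand: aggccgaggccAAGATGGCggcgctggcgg

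Other motifs were less frequent. The ETS/GABP core CCGGAAG was found for 4 subunits (8.86% of all windows), the ERR site AAGGTCA for 3 (4.72%), the cyclic AMP element core TGACGTCA for 3 (1.79%), the E-box CACGTG for 2 (7.15%) and the D-box TTATGNAA, the site of clock output factors, for Ndufa5 alone (3.38%). Motif matches are descriptions of letters and were not tested as binding sites.

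The first comparison asks how the subunit transcripts differed between sh-Acsf3 and sh-Ctl livers when the 8 times were averaged. With library sizes scaled by TMM (a trimmed mean over genes), 12 of 34 subunits were lower in sh-Acsf3 at an edgeR adjusted p under 0.05 and 0 were higher, where 6.21% of all tested genes were lower and 8.26% higher. Of the 34, 32 had a difference below 0, against 52.7% of all genes, and the median difference was -0.10 (log2) against -0.01 for all genes. The differences were small: the 12 lower subunits fell by 8.58% to 15.8%. At an unadjusted p under 0.05, 18 subunits were lower, against 13.2% of all genes. Liver tissue was measured in bulk, so fewer hepatocytes and less RNA per hepatocyte cannot be told apart.

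The size of the call depended on the scaling. With library size alone in place of TMM, 4 subunits remained lower (Ndufv1, Ndufb5, Ndufb9 and Ndufb8) and 0 were higher, against 2.45% and 11.1% of all genes. The median of all genes moved by 0.05 between the scalings, to 0.05, and the subunits' median moved with it, to -0.05, with 29 of 34 below 0. The subunits thus stood about as far below the median gene under either scaling.

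**Figure D1:**
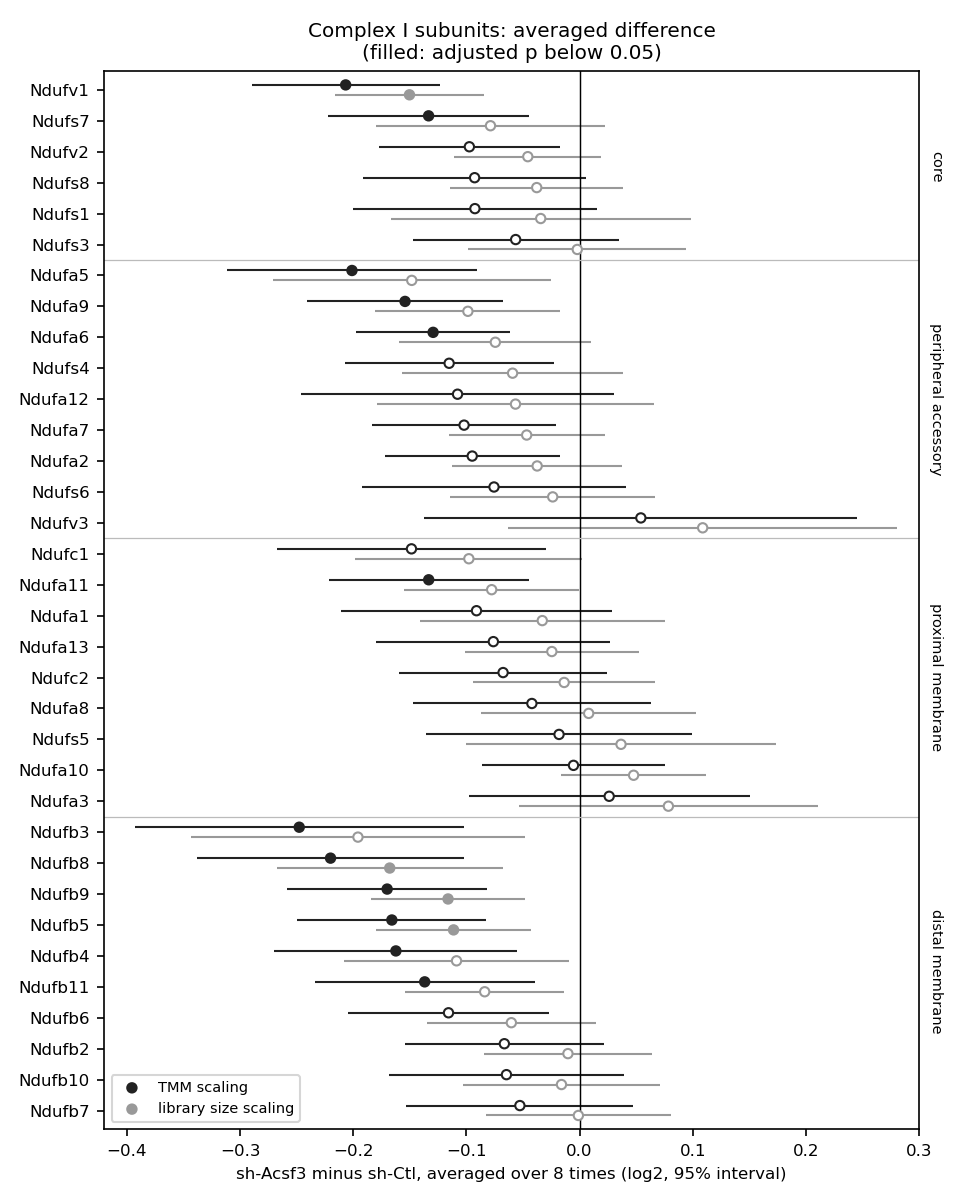
The averaged sh-Acsf3 minus sh-Ctl difference (log2, horizontal axis) of each of the 34 subunits with its 95% interval, grouped by place in the complex, with TMM scaling in black and library size scaling in grey. Filled points passed an edgeR adjusted p of 0.05: 12 with TMM and 4 with library size, and no filled point lies above 0.

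Among the 6 core subunits of the peripheral arm, 2 were lower with TMM, where 6.21% of all genes were. Ndufv1, which binds NADH and the flavin that first accepts its electrons, had the smallest p of all 34. It lay at 129, 162 and 219 CPM (lowest, median and highest of 32) in sh-Ctl and at 108, 141 and 169 CPM in sh-Acsf3. The ranges overlapped, but the sh-Acsf3 mean was lower at 8 of 8 times, and 30 of 32 sh-Acsf3 libraries lay below the sh-Ctl median of their own time. The log2 estimate was -0.21 ± 0.04 (SE; edgeR adjusted p of 0.000175), and -0.15 ± 0.03 with library size scaling (edgeR adjusted p of 0.000581). Ndufs7, which carries the last iron-sulfur cluster before ubiquinone, was lower by -0.13 ± 0.04 (edgeR adjusted p of 0.0319) and was not called with library size scaling (-0.08 ± 0.05, edgeR adjusted p of 0.36).

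The other core members did not pass. Ndufv2, the iron-sulfur partner of Ndufv1, was at -0.10 ± 0.04 (edgeR adjusted p of 0.0941). Ndufs8, which carries a pair of clusters on the path to Ndufs7, was at -0.09 ± 0.05, Ndufs1, the largest subunit of the arm, at -0.09 ± 0.05, and Ndufs3, a structural core subunit beside the ubiquinone site, at -0.06 ± 0.05. All 6 lay below 0 under both scalings, with a median of -0.10 with TMM and -0.04 with library size.

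Of the 9 accessory subunits of the peripheral arm, 3 were lower with TMM and 0 with library size. The shares of all genes lower were 6.21% and 2.45%. Ndufa6, one of the LYR-motif subunits that dock the acyl carrier protein, lay at 317, 399 and 442 CPM (lowest, median and highest) in sh-Ctl and at 279, 364 and 421 CPM in sh-Acsf3. It was lower in the mean at 7 of 8 times, the exception being ZT9, and its difference was -0.13 ± 0.03 (edgeR adjusted p of 0.00466). Ndufa5, a small subunit near the ubiquinone site, lay at 21.0, 31.7 and 47.1 CPM in sh-Ctl and at 20.3, 27.9 and 38.0 CPM in sh-Acsf3, with a difference of -0.20 ± 0.06 (edgeR adjusted p of 0.00744). It was lower in the mean at 6 of 8 times, and at ZT6 the groups did not overlap (28.0 to 33.5 CPM in sh-Ctl, 20.3 to 26.9 CPM in sh-Acsf3). Here and below, the share of all subunit and time pairs without overlap is not given, and no pair passed at a single time. Ndufa9, a subunit with a nucleotide-binding fold that stabilizes the joint of the arms, was lower by -0.15 ± 0.04 (edgeR adjusted p of 0.00862) and in the mean at 8 of 8 times.

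Neither Ndufa6 (edgeR adjusted p of 0.284), Ndufa5 (0.104) nor Ndufa9 (0.104) passed with library size scaling. Just above the threshold with TMM were Ndufa7 (-0.10 ± 0.04), Ndufs4 (-0.12 ± 0.05) and Ndufa2 (-0.09 ± 0.04), at edgeR adjusted p of 0.0817, 0.0839 and 0.0896. Ndufs4 is the late-assembled subunit whose loss is used as a model of Leigh syndrome. Ndufa12, a neighbour of Ndufs6, was at -0.11 ± 0.07 and Ndufs6, a zinc-binding subunit, at -0.08 ± 0.06. Ndufv3, which sits on the Ndufv1 and Ndufv2 pair, was the highest of the 34 at 0.05 ± 0.10, and its libraries were spread widely, from 64.5 to 192 CPM in sh-Ctl and from 54.6 to 204 CPM in sh-Acsf3.

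Of the 9 accessory subunits of the proximal membrane arm, next to the joint, 1 was lower with TMM, where 6.21% of all genes were. This was Ndufa11, a membrane subunit, at -0.13 ± 0.04 (edgeR adjusted p of 0.0308) and -0.08 ± 0.04 with library size (edgeR adjusted p of 0.198). Ndufc1 had a like difference, -0.15 ± 0.06, but a wider spread, and did not pass (edgeR adjusted p of 0.0842). Ndufa1 (-0.09 ± 0.06), Ndufa13 (-0.08 ± 0.05), Ndufc2 (-0.07 ± 0.05) and Ndufa8 (-0.04 ± 0.05) did not pass. The 3 members nearest 0 in this group were Ndufs5 at -0.02 ± 0.06, Ndufa10, which has a kinase-like fold, at -0.01 ± 0.04 and Ndufa3 at 0.03 ± 0.06. For Ndufa10 the 95% interval ran from -0.09 to 0.08, so a fall of the size seen for Ndufv1 lies outside it. With library size scaling Ndufa8, Ndufs5 and Ndufa10 were above 0, and Ndufa3 stayed above 0 at 0.08.

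The distal membrane arm held the most calls, with 6 of its 10 accessory subunits lower, a median of -0.15 and all 10 below 0. Of all tested genes 6.21% were lower and 52.7% below 0. With library size 3 remained and the median was -0.10, where 2.45% of all genes were lower and their median was 0.05. Differences between the parts of the complex were not tested. Ndufb5, a single-pass subunit of this arm, lay at 115, 148 and 193 CPM in sh-Ctl and at 91.7, 134 and 164 CPM in sh-Acsf3. It was lower in the mean at 8 of 8 times, by -0.17 ± 0.04 (edgeR adjusted p of 0.00314), and at ZT12 the groups were adjacent without overlap, with 134 to 160 CPM in sh-Ctl and 91.7 to 134 CPM in sh-Acsf3. Ndufb9, the other LYR-motif subunit bound by the acyl carrier protein, lay at 321, 411 and 493 CPM in sh-Ctl and at 259, 356 and 471 CPM in sh-Acsf3, again lower in the mean at 8 of 8 times, by -0.17 ± 0.04 (edgeR adjusted p of 0.0044).

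Ndufb8, a subunit widely used as a protein marker of assembled complex I, lay at 55.9, 65.8 and 96.2 CPM in sh-Ctl and at 38.8, 57.9 and 85.5 CPM in sh-Acsf3. It was lower in the mean at 8 of 8 times, by -0.22 ± 0.06 (edgeR adjusted p of 0.00565). Ndufb5, Ndufb9 and Ndufb8 also passed with library size scaling, at edgeR adjusted p of 0.0187, 0.0135 and 0.0152. Ndufb3 showed the largest fitted fall of the 34, -0.25 ± 0.07 (edgeR adjusted p of 0.0129), from 25.1 to 22.3 CPM in the medians, and its lowest libraries reached 18.9 CPM in sh-Ctl and 9.74 CPM in sh-Acsf3. Ndufb4 (-0.16 ± 0.05, edgeR adjusted p of 0.0302) and Ndufb11, an X-linked subunit (-0.14 ± 0.05, edgeR adjusted p of 0.046), completed the 6. Ndufb6 was the first below the line, at -0.12 ± 0.04 and an edgeR adjusted p of 0.0672. Ndufb2 (-0.07 ± 0.04), Ndufb10 (-0.06 ± 0.05) and Ndufb7 (-0.05 ± 0.05) did not pass, and Ndufb10 and Ndufb7 belong to the subunits with paired cysteine motifs that face the intermembrane space.

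**Figure D2:**
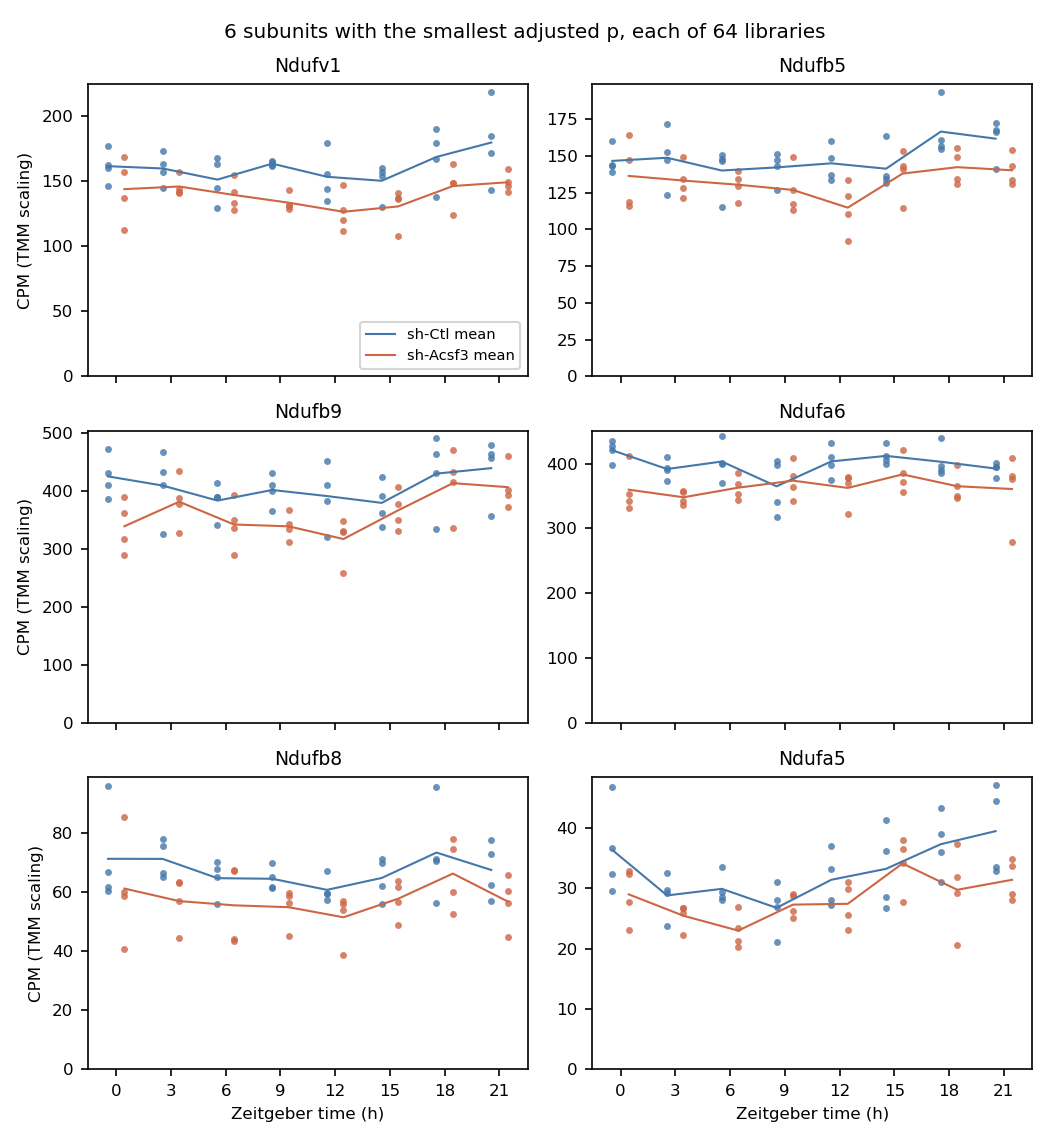
CPM (TMM scaling, vertical axis) of the 6 subunits with the smallest adjusted p in each of the 64 libraries by zeitgeber time (h), with sh-Ctl in blue, sh-Acsf3 in orange and lines through the means of 4. The sh-Acsf3 mean lies below the sh-Ctl mean at 8 of 8 times for Ndufv1, Ndufb5, Ndufb9 and Ndufb8, and at 7 and 6 times for Ndufa6 and Ndufa5, with overlapping points at most times.

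The 4 lower subunits with an NRF1 match and a RefSeq promoter window were Ndufa11, Ndufa5, Ndufa6 and Ndufb4, out of 11 lower subunits with a window, and 3 of 20 other subunits had one. For the YY1 match the counts were 3 of 11 (Ndufa9, Ndufb8 and Ndufs7) and 4 of 20. These counts are a description, and no difference between them was tested.

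The summed level of the 34 subunits was 5078 ± 396 CPM in sh-Ctl and 4747 ± 410 CPM in sh-Acsf3 with TMM (mean ± SD within times, n = 32 each). As a plain share of all UMIs it was 0.496% and 0.48%. The spread between replicates was smaller with library size, at 4956 ± 220 CPM in sh-Ctl and 4802 ± 184 CPM in sh-Acsf3. For single genes, 26 of 34 subunits had a smaller spread between replicates with library size than with TMM, with a median SD of 0.17 against 0.20 (log2), while 26.7% of all tested genes did. The largest effect of scaling was at ZT9, where the median TMM factor was 0.936 for sh-Ctl and 1.08 for sh-Acsf3: the summed level there was 4993 ± 145 CPM against 4443 ± 226 CPM with TMM, and 4643 ± 208 CPM against 4694 ± 93.9 CPM with library size (SD, n = 4 each).

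**Figure D3:**
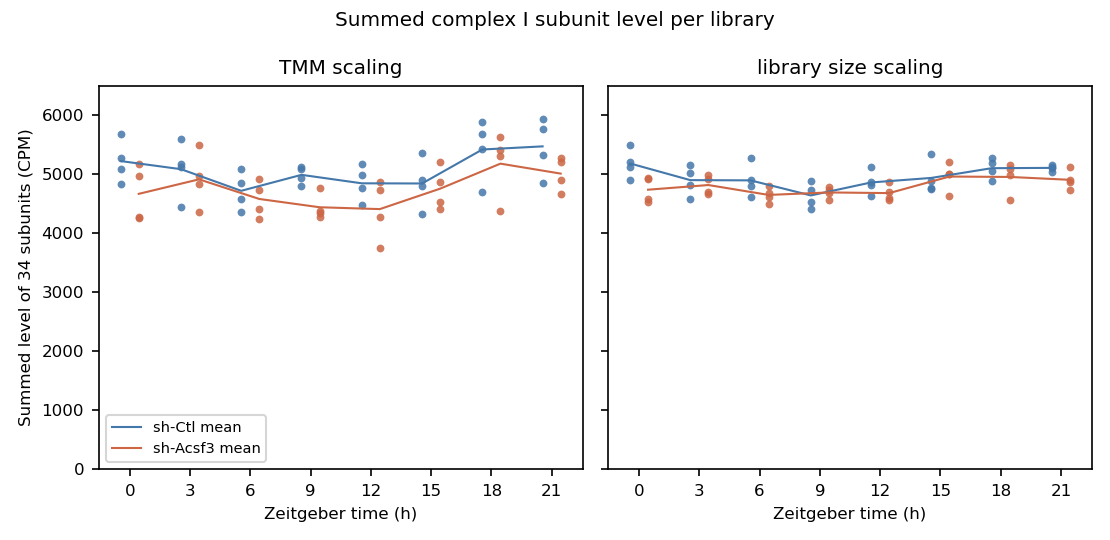
Summed CPM of the 34 subunits (vertical axis) in each library by zeitgeber time (h), with TMM scaling on the left and library size scaling on the right, sh-Ctl in blue, sh-Acsf3 in orange and lines through the means of 4. With TMM the means are 5078 and 4747 CPM over all times, and with library size the points draw together, to 4956 and 4802 CPM.

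Markers of other liver cells rose in the same libraries. Of the stellate cell and fibroblast list, 9 of 10 genes rose in sh-Acsf3, and their summed level ran from 165 to 343 CPM in sh-Ctl and from 348 to 746 CPM in sh-Acsf3. All 5 tested lymphocyte markers of 9 listed rose (summed 3.50 to 15.2 CPM and 10.2 to 71.7 CPM), as did 6 of 10 Kupffer cell markers (112 to 451 CPM and 140 to 444 CPM), 2 of 3 tested cholangiocyte markers and 1 of 7 endothelial markers. No tested gene of these 5 lists fell, and none of their genes was at 0 in all libraries. Of the hepatocyte list 2 of 10 fell with TMM, Hnf4a (-0.23 ± 0.05, edgeR adjusted p of 0.00054) and Fgb (-0.23 ± 0.07, edgeR adjusted p of 0.0259), and 0 rose. With library size Hnf4a stayed lower (edgeR adjusted p of 0.0228), Fgb did not pass (0.124), and Alb (0.18) and Apoc3 (0.17) were higher, at edgeR adjusted p of 0.024 and 0.00108. Fgb, a fibrinogen chain, is also an acute-phase gene, and its spread within times was 1501 CPM in sh-Ctl and 510.2 CPM in sh-Acsf3 (SD, n = 32 each). All 4 genes of the acute-phase list were lower in sh-Acsf3, and the 4 Saa1-high libraries were all sh-Ctl. The part of these marker changes in the subunit difference was not tested. Without the 4 Saa1-high libraries 16 subunits were lower, among them all 12, where 5.83% of all genes were lower. Without the 8 libraries with pancreas RNA 8 were lower, all of them among the 12, where 4.89% of all genes were.

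The rest of the respiratory chain gave the same comparison a frame. Some complex I subunits outside the list of 34 were also examined. Ndufab1, the acyl carrier protein itself, was at -0.04 ± 0.04 (edgeR adjusted p of 0.613). The mitochondrially encoded mt-Nd6 was at 0.25 ± 0.10 with TMM (edgeR adjusted p of 0.0684) and was higher with library size (0.31, edgeR adjusted p of 0.0143), while mt-Nd4 was at -0.16 ± 0.08 and did not pass. Of 21 tested assembly factors, the proteins that build complex I without staying in it, 0 were lower and 0 higher, with a median of -0.04. Those with the smallest p were Ndufaf8 (-0.14 ± 0.05), Ecsit (-0.13 ± 0.05) and Chchd4 (-0.15 ± 0.06), with edgeR adjusted p of 0.0726, 0.0783 and 0.0875.

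Complex II, which feeds electrons from succinate into the same ubiquinone pool, had 3 of 8 tested genes lower with a median of -0.12: Sdha (-0.15 ± 0.04), Sdhb (-0.18 ± 0.05) and Sdhc (-0.11 ± 0.04). Of 33 tested nuclear subunits of complexes III and IV and ATP synthase, 8 were lower and 0 higher, with a median of -0.07, led by Cox6c (-0.15 ± 0.04, edgeR adjusted p of 0.00843), Uqcrfs1 (-0.11 ± 0.03) and Ndufa4, a cytochrome oxidase subunit despite its name (-0.10 ± 0.03). With library size 0 of the complex II genes passed, and of these 33 0 were lower and 1 was higher, Cox4i1 (0.18, edgeR adjusted p of 0.02). Among 12 tested regulators of respiratory genes 0 passed, and the smallest p belonged to Ppargc1b, a coactivator of nuclear receptors (-0.21 ± 0.10, edgeR adjusted p of 0.131), Esrra, the estrogen-related receptor that binds the ERR site (-0.14 ± 0.06, edgeR adjusted p of 0.15), and Pprc1 (-0.26 ± 0.15, edgeR adjusted p of 0.263). Whether the subunits of complex I differed from these other lists was not tested.

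The next comparison takes each time on its own. No subunit passed at any of the 8 times with edgeR, DESeq2 or limma-voom, or with library size: 0 of 272 subunit and time pairs were called where 0.384% of all gene and time pairs were (0.395% with library size). The shares of all genes called were 0.515% at ZT0, 0.0693% at ZT3, 0.218% at ZT6, 0.357% at ZT9, 1.4% at ZT12, 0.0297% at ZT15, 0.168% at ZT18 and 0.317% at ZT21. With library size these shares were, in the same order of times, 0.297%, 0.0792%, 0.139%, 0.654%, 1.58%, 0.0198%, 0.0297% and 0.357%. At an unadjusted p under 0.05 with TMM, 7 subunits were lower at ZT0, 1 at ZT6, 3 at ZT9, 6 at ZT12 and 5 at ZT21, 0 at the other 3 times, and 0 were higher at any time. The shares of all genes lower by that measure were 3.98% at ZT0, 3.53% at ZT6, 3.97% at ZT9, 5.62% at ZT12, 5.22% at ZT21 and 2.29% to 2.55% at the other times. The shares of all genes higher ran from 3.03% at ZT15 to 7.61% at ZT12. With library size 3 subunits were lower at ZT0 (2.45% of all genes), 1 at ZT3 (1.46%), 2 at ZT6 (4.18%), 0 at ZT9 (0.743%), 6 at ZT12 (2.69%), 0 at ZT15 (1.29%), 1 at ZT18 (1.3%) and 1 at ZT21 (2.58%). With the same scaling 1 was higher at ZT9 (12.6% of all genes), 1 at ZT15 (3.39%) and 0 at the other times (2.28% to 10.3%). The subunits' median ran as follows: -0.10 at ZT0, -0.05 at ZT3, -0.02 at ZT6, -0.18 at ZT9, -0.18 at ZT12, -0.05 at ZT15, -0.10 at ZT18 and -0.19 at ZT21, with 22 to 30 subunits below 0.

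The smallest adjusted p at a single time was that of Ndufa9 at ZT12 (edgeR adjusted p of 0.128). Its 4 sh-Ctl libraries there lay at 58.2, 63.1, 64.9 and 74.4 CPM and its 4 sh-Acsf3 libraries at 46.6, 48.2, 53.3 and 54.4 CPM. The groups did not overlap, with a difference of -0.36 ± 0.12. Ndufb3 had the largest fitted falls at single times, -0.53 ± 0.21 at ZT12 and -0.52 ± 0.22 at ZT21, but its groups overlapped at both: 23.6 to 32.6 CPM against 12.0 to 28.6 CPM at ZT12, and 23.2 to 33.6 CPM against 9.74 to 29.3 CPM at ZT21. With library size the ZT9 median was 0.01, with 16 of 34 subunits below 0, while the median of all genes there was 0.19. No subunit was called at any time without the Saa1-high libraries or without those with pancreas RNA. The subunits' median was then -0.16 at ZT9 in both cases, and -0.21 and -0.18 at ZT12. Without the libraries with pancreas RNA it was 0.01 at ZT6 and 0.01 at ZT15.

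**Figure D4:**
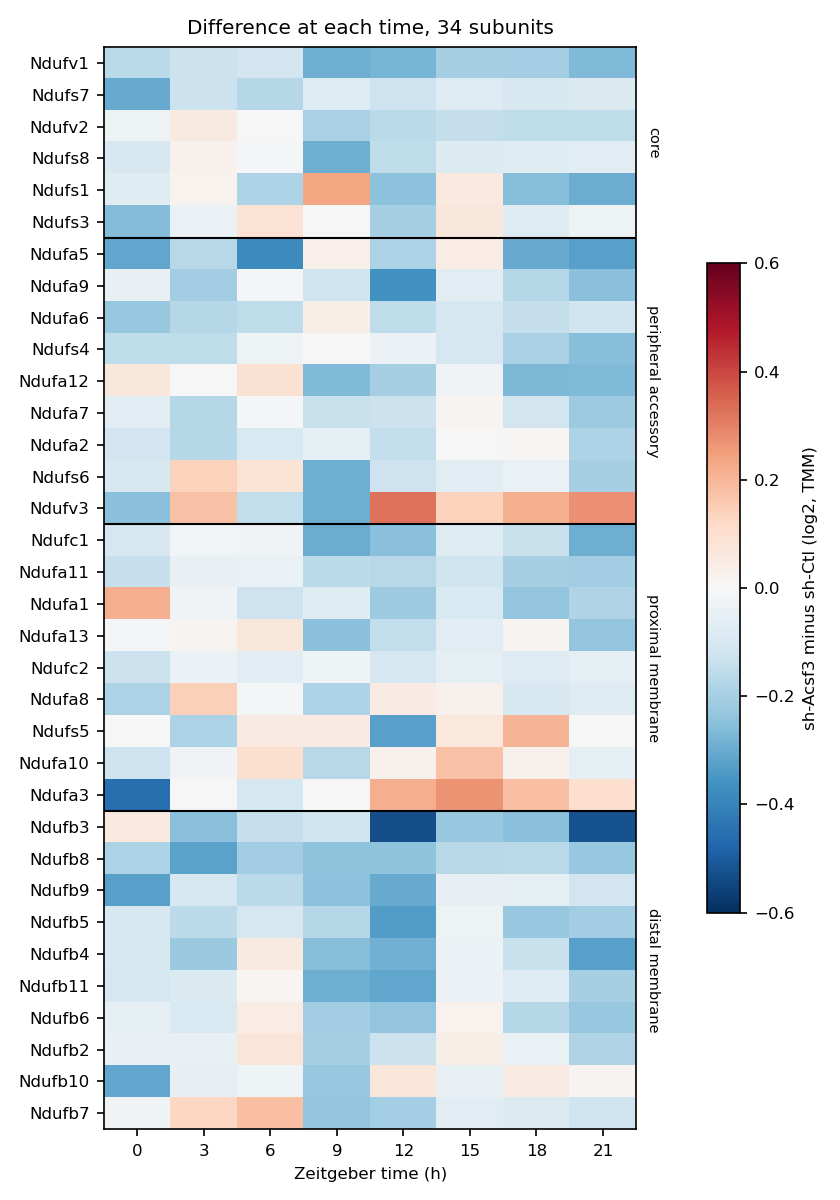
The sh-Acsf3 minus sh-Ctl difference (log2, TMM; blue lower, red higher) of each of the 34 subunits (rows, grouped by place in the complex) at each zeitgeber time (columns, h). Blue prevails at ZT0, ZT9, ZT12 and ZT21, where 29 or 30 of 34 differences are below 0, Ndufb3 is the darkest at ZT12 and ZT21, and no single cell passed an adjusted p of 0.05.

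Whether the treatment difference changed over the day was tested with an interaction over the 8 times. With edgeR 0 of 34 subunits passed, 0 had an unadjusted p under 0.05, and among all genes 0 passed and 3.03% had such a p. The smallest p among the subunits were those of Ndufa3 (unadjusted p of 0.116) and Ndufs1 (0.186) in the edgeR interaction test. Ndufa3, a small membrane subunit, changed sign between times: at ZT0 its sh-Ctl libraries lay at 308 to 346 CPM and its sh-Acsf3 libraries at 142, 232, 285 and 293 CPM, without overlap, while at ZT15 they lay at 211 to 259 CPM and 254 to 324 CPM, with some overlap. The differences were -0.45 ± 0.18 at ZT0 and 0.27 ± 0.18 at ZT15. Ndufs1 was at 0.24 ± 0.15 at ZT9 and -0.30 ± 0.16 at ZT21, with overlapping groups at both times.

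The last comparison asks which subunits followed a 24 h rhythm. By the mean of both treatments 13 of 34 did with TMM (edgeR adjusted p under 0.05), close to the 35.3% of all genes, and 8 did with library size, where 35.2% of all genes did. In sh-Ctl alone 6 passed, against 19.4% of all genes: Ndufa5, Ndufs7, Ndufs3, Ndufa11, Ndufv2 and Ndufa3. In sh-Acsf3 alone 3 passed, against 19.6% of all genes: Ndufa5, Ndufs7 and Ndufb10. With library size these counts were 3 (17.2% of all genes) and 2 (19.5% of all genes). The fitted peaks were close together: all 13 rhythmic subunits peaked between ZT18 and ZT24, and so did 30 of all 34, with 3 between ZT12 and ZT18 and Ndufa1 at ZT0.91. Of all rhythmic genes 22.8% peaked in that window, and of all tested genes, rhythmic or not, 25.2%. The 34 likewise include subunits not called rhythmic. With library size 7 of the 8 rhythmic subunits peaked between ZT18 and ZT24, against 12.1% of all rhythmic genes. In all, 22 of 34 did, against 17.1% of all tested genes. The median TMM factors, by which CPM values are divided, were 0.946 at ZT18 and 0.924 at ZT21 in sh-Ctl and 0.961 and 0.996 in sh-Acsf3, and their part in the peak times was not tested. Without the Saa1-high libraries 14 subunits were rhythmic, with Ndufs4 added (edgeR adjusted p of 0.0401), where 34.9% of all genes were. Without the libraries with pancreas RNA 10 were, where 29.6% of all genes were, and Ndufv1, Ndufc1 and Ndufs5 did not pass (edgeR adjusted p of 0.108, 0.0613 and 0.109).

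Amplitudes were low. The 13 had a median amplitude of 0.12 (log2, from mean to peak), with peak to trough folds of 1.12 to 1.33, against a median amplitude of 0.23 for all 3569 rhythmic genes. Ndufa5 had the largest amplitude, 0.20 with a peak at ZT18.9 (edgeR adjusted p of 1.91e-05). Its 8 libraries at ZT6 lay at 20.3, 27.5 and 33.5 CPM (lowest, median and highest) and those at ZT21 at 28.0, 33.6 and 47.1 CPM, so the times overlapped. It was rhythmic in each treatment alone, as was Ndufs7. Its promoter window held the D-box match found for 1 of 31 subunits, against 3.38% of all windows. A link between match and rhythm was not tested.

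Ndufs7 had an amplitude of 0.16 and a peak at ZT21.8 (edgeR adjusted p of 5.02e-05), with 81.2, 93.3 and 110 CPM at ZT9 and 101, 117 and 149 CPM at ZT21. Ndufb10 had an amplitude of 0.17 and a peak at ZT19.1 (edgeR adjusted p of 0.000282), with 214, 238 and 277 CPM at ZT6 and 214, 317 and 450 CPM at ZT18. Ndufs3 had an amplitude of 0.14 and a peak at ZT18.7 (edgeR adjusted p of 0.00151), with 45.6, 62.2 and 71.6 CPM at ZT6 and 65.8, 79.1 and 89.3 CPM at ZT21. All 4 stayed rhythmic with library size, at edgeR adjusted p of 0.0018, 0.0107, 0.00028 and 0.02 in the order given here. The remaining 9 were Ndufa11, Ndufv2, Ndufa10, Ndufb9, Ndufb5, Ndufs8, Ndufv1, Ndufc1 and Ndufs5, with amplitudes of 0.08 to 0.12. Ndufa6 (0.03) and Ndufs1 (0.02) were the flattest.

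**Figure D5:**
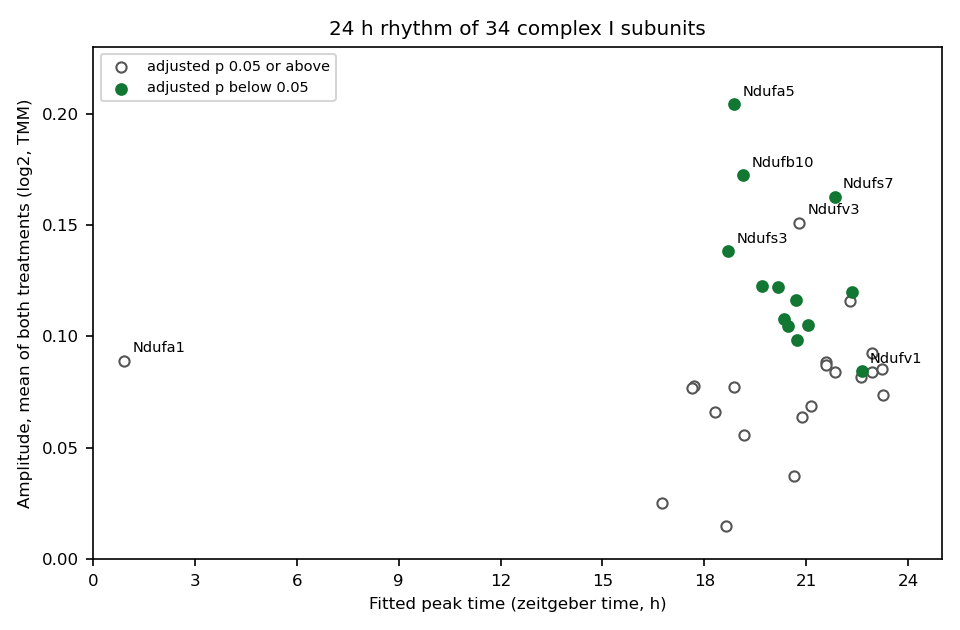
Fitted amplitude (log2, mean of both treatments, TMM) against fitted peak time (zeitgeber time, h) for the 34 subunits, with the 13 at an adjusted p under 0.05 filled. The peaks gather between ZT18 and ZT24 for 30 of 34 subunits, and Ndufa5 has the largest amplitude at 0.20. Ndufa1, which did not pass, is drawn at the left at ZT0.91, a time shortly after ZT24 in the daily cycle.

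No subunit differed in rhythm between the treatments. In edgeR 0 of 34 passed the test of the difference, as did 0 of all genes, and 1 subunit, Ndufa3, had an unadjusted p under 0.05 (0.0365, edgeR adjusted p of 0.999), where 4.27% of all genes did. Its amplitude was 0.21 ± 0.06 with a peak at ZT0.31 ± 1.00 h in sh-Ctl, and 0.12 ± 0.08 with a peak at ZT17.9 ± 2.47 h in sh-Acsf3 (SE). The next, Ndufv2, had an unadjusted p of 0.179 in the same edgeR test, with amplitudes of 0.12 ± 0.03 in sh-Ctl and 0.11 ± 0.04 in sh-Acsf3 and peaks at ZT18.9 ± 1.00 h and ZT22.1 ± 1.30 h. Calls in one treatment alone, as for Ndufs3 or Ndufb10, are therefore not shown to differ between treatments.

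Gene models of neighbours touch some of these values. In GENCODE M21 (GRCm38) the exons of 14 of the 34 overlap those of 17 other genes, 14 of these on the opposite strand, and the sources used here do not state whether counting used strand. The overlapping partner with the most UMIs was Eef1b2, a translation elongation factor gene at Ndufs1 (52605 UMIs against 11341 for Ndufs1), followed by Mrpl36 at Ndufs6 (11524 UMIs against 39529). Among the lower subunits, Ndufb5 (chr3:32736990-32751566, plus strand) overlaps Mrpl47 (5073 UMIs), Ndufb11 (chrX:20615326-20617619, minus strand) overlaps Rbm10 (2806 UMIs) and Ndufa11 (chr17:56717767-56722141, plus strand) overlaps Vmac (1562 UMIs). Ndufv1 (chr19:4007384-4012806, minus strand), Ndufa6 (chr15:82350140-82354322, minus strand) and Ndufa5 (chr6:24518666-24528013, minus strand) overlap no other exon. Near-identical copies held few counts: 382 UMIs for Ndufs5-ps, against 3134 for Ndufs5, and at most 17 for Ndufa11b, Ndufs6b, Ndufa12-ps and Ndufb4c.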

How the data were processed

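BRB-seq, a bulk method that barcodes RNA and counts 3′ ends by UMI, was run on frozen liver, per the labels' protocols. The authors deposited raw UMI counts per gene, without normalization, in 1 table of 64 columns. Reads were aligned with STAR to GRCm38/mm10, per the submitters' processing notes. Versions, annotation and the strand setting are not given in the sources used here.

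The tests used edgeR 4.0.16 in R 4.3.3: filterByExpr (minimum count 10, minimum total 15; 10097 genes), TMM, and a quasi-likelihood model of 16 group means (48 residual degrees of freedom). From it came the treatment difference (sh-Acsf3 minus sh-Ctl) as the average over 8 times, at each time, and in its interaction with time. A harmonic model with a 24 h period for each treatment (58 residual degrees of freedom) tested rhythm. Amplitudes and peaks were fitted to log2 CPM (prior count 2). The Benjamini-Hochberg adjustment ran over all tested genes, with a threshold of 0.05, and 95% intervals are the estimate ± its error times the t quantile. The scripts were checked on simulated counts. Alternatives were library size scaling, RLE, other filters, limma-voom 3.58.1, DESeq2 1.42.0, a replicate block and libraries left out. Figures used Python 3.11.15 and matplotlib 3.10.9.

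The subunits and the other lists were chosen with earlier results of these data known. All subunits are named. Values by library are given for the 6 with the smallest p of the averaged difference, the 4 for rhythm, and 2 each for the difference in rhythm and the interaction. Up to 3 genes of each other list are named by p (1 result of the list of other complex I subunits is not reported here), and Ndufab1, mt-Nd4, mt-Nd6, Cox4i1, Hnf4a, Fgb, Alb and Apoc3 were taken after their values were seen or for their role. The precision was limited by the spread between replicates as well as by the totals of 0.839 to 9.35 M UMIs. No 2 replicates of a group, in 96 pairs, were alike within counting noise (chi-square over its degrees of freedom was at least 2.84).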

Additional observations from a re-analysis of the deposited data

Results flagged for a closer look

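Within each of the 16 groups of 4 libraries, the summed subunit level and the 6 leading subunits were searched for a library far from the other 3. That made 112 searches, and in 7 the gap was past the 95% limit of Dixon's test. Chance passes about 1 in 20 independent searches, which is near this number. The searches share libraries, and the sum contains the 6 subunits, so they are not independent.

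Ndufv1 was high in sh-Acsf3 ZT3 replicate 4 (157 CPM, the others 141 to 144) and low in sh-Acsf3 ZT15 replicate 3 (108 CPM, the others 137 to 141). Ndufb5 was low in sh-Ctl ZT6 replicate 1 (115 CPM, the others 146 to 150) and high in sh-Ctl ZT15 replicate 4 (163 CPM, the others 132 to 136) and sh-Ctl ZT18 replicate 4 (193 CPM, the others 155 to 161). In sh-Acsf3 ZT12 replicate 1 both Ndufa6 (323 CPM, the others 370 to 379) and Ndufb8 (38.8 CPM, the others 54.1 to 57.1) were low. Without that library 8 subunits were lower on average over the times, and Ndufa6 and Ndufb8 remained among them. The share of all genes lower without it was not recorded, so the drop is not shown to be particular to the subunits.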

How the results depend on the processing

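The direction of the 12 falls held under all alternatives run, and their number did not. It was 11 with RLE (5.86% of all genes lower), 12 with limma-voom (5.91%), 10 with DESeq2 (5.49%) and 8 with a mean CPM of at least 5 (5.23%), but 4 with library size (2.45%), 4 with library size after removal of mitochondrially encoded genes (2.31%) and 7 without a gene filter (2.88%). Leaving out a replicate number gave 4 to 12 (2.59% to 5.3%), so the share of all genes fell in the settings with the fewest subunits too. Leaving out single libraries gave 8 (without sh-Acsf3 ZT12 replicate 1) to 17 (without sh-Ctl ZT15 replicate 1). For single libraries the shares of all genes lower were not recorded, so this range is not shown to be particular to the subunits. Ndufv1, Ndufb5, Ndufb9, Ndufa6, Ndufb8, Ndufa5, Ndufa9 and Ndufb3 kept their call without any one library, Ndufb11 in 28 of 64 cases, and Ndufv1, Ndufb5 and Ndufb8 in all 15 other settings. The median stayed between -0.13 and -0.03. Of 510 single values, 55 lost and 6 gained a call and 20 changed sign. The causes were not tested.

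Rhythmic subunits by the mean of both treatments were 8 with library size (35.2% of all genes), 7 without a filter (14.8%), and 6 to 12 without a replicate number (27.7% to 28.5%; 6 without replicate 3). In sh-Ctl they were 3 with library size (17.2%), 3 with library size without mitochondrially encoded genes (18.5%), 2 without a filter (6.83%) and 2 to 3 without a replicate number (11.2% to 14.6%). In sh-Acsf3 they were 6 with a mean CPM of at least 5 (23.7%) and 1 without libraries under 1 M UMIs (18%).

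Sign changes were all of values near 0. With library size Ndufa8 was at 0.0081, Ndufa10 at 0.048 and Ndufs5 at 0.037. With library size without mitochondrially encoded genes these were 0.021, 0.060 and 0.047, and Ndufb2 was at 0.00056, Ndufb7 at 0.012 and Ndufs3 at 0.0088. With a mean CPM of at least 5 Ndufa10 was at 0.013 and Ndufs5 at 2.7e-05. Without Saa1-high libraries Ndufa3 was at -0.0086, and without those with pancreas RNA Ndufa10 was at 0.015 and Ndufs5 at 0.025. Leaving out a replicate number or a library gave -0.059 to 0.094 for Ndufa3, -0.019 to 0.014 for Ndufa10, -0.092 to 0.0047 for Ndufb7, -0.046 to 0.017 for Ndufs5 and -0.019 to 0.126 for Ndufv3.

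Groups share replicate numbers, but the labels do not say what a number stands for. Deviations of same-numbered libraries had a mean correlation of 0.03 over 480 pairs, against -0.01 for other pairs. Of the 480, 108 were over 0.1 and the lowest was -0.30, so the numbers were not taken as pairs. Of 64 libraries 35 correlated best with their own number, more than 1 in 4, and what lies behind this was not tested. With a replicate block 12 subunits were lower, where 6.73% of all genes were. By the mean of both treatments 13 were rhythmic, close to the 36.4% of all genes. In single treatments 7 were rhythmic in sh-Ctl (20.1% of all genes) and 6 in sh-Acsf3 (20.5%).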
